A study of Mus musculus with 4 samples.

Results

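The 5 genes described here encode enzymes that stromal cells release to cut matrix and other secreted proteins: Mmp3, Mmp10, Adamts18, Adamdec1 and Prss23. They were chosen by name, and all 5 were found among the 3891 gene rows read from the deposited expression table. Their mRNA was followed in 16891 single cells captured on the 10X Genomics platform, in 2 libraries of 2547 and 14344 cells. The cells came from the small intestine of wild-type C57Bl/6 male mice, 8 weeks old, and had been sorted as live CD45-, EpCAM-, CD31- cells that carry PDPN (gp38), a surface protein of intestinal fibroblasts. No treatment or mutation separated the libraries, and how many mice stood behind each is not given in the sources used here, so the library was the replicate (n = 2) and the spread may be technical.

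Cells were placed in stromal groups by the genes in which they had at least 1 unique molecular identifier (UMI, a tag that counts 1 captured mRNA). Cells with Sox6, a transcription factor of subepithelial fibroblasts, were subepithelial and were divided by Wif1, a secreted Wnt inhibitor. Among the rest, cells with at least 3 of Inmt, Penk, Vit and Scara5 were mesothelial-like, and then cells with at least 3 of Chodl, Dner, Thbs2 and Ptn were of the Fibin type. Remaining cells with Grem1, a secreted BMP antagonist, were called crypt cells, and those with Lpl but no Grem1 were called villus cells. This gave 15387 of the 16891 cells a group. In libraries 1 and 2 there were 114 and 821 Wif1+ subepithelial cells, 171 and 1878 Wif1- subepithelial cells, 331 and 1107 mesothelial-like cells, 100 and 697 Fibin-type cells, 1021 and 4837 crypt cells, and 611 and 3699 villus cells.

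The groups were read against marker genes that the rule had not used. Pdgfra was found in 84.0% to 100% of the cells of every group, and Bmp7 in 71.7% to 95.1% of the subepithelial cells but at most 9.95% of the cells elsewhere. The summed level of 8 subepithelial markers, gate genes included, was 52.5 to 70.1 UMIs per 10,000 in the subepithelial groups, 36.3 to 39.6 in Fibin-type cells and 5.73 to 13.2 in the other groups. Fibin-type cells also held the 4 crypt markers at 19.0 to 20.8 and mesothelial-like cells at 14.6 to 21.4, against 16.0 to 19.0 in crypt cells. Fibin itself was found in 91.0% and 87.4% of Fibin-type cells. Wt1, by which the mesothelial-like cluster is known, was found in only 12.7% and 17.6% of the cells gated here as mesothelial-like, so that name rests mostly on the 4 genes of the gate. The subepithelial cells also carried the smooth muscle genes Acta2 (87.2% to 98.2% of cells) and Myh11 (72.3% to 86.8%), whereas Actg2 was found in 3.29% to 4.09% of them. The summed level of 6 smooth muscle genes was 42.5 to 56.8 UMIs per 10,000 in the subepithelial groups and 0.446 to 13.3 elsewhere. Median depth ranged from 11976 and 9701 UMIs in Wif1+ subepithelial cells to 7939 and 5982 in villus cells, and 7 cell barcodes occurred in both libraries.

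Matrix proteases of the metzincin kind hold a catalytic zinc and are made as inactive precursors whose prodomain has to be removed. Tissue inhibitors of metalloproteinases (TIMPs) and other secreted inhibitors hold them in check, so that mRNA alone does not give activity. Mmp3 (stromelysin 1) and Mmp10 (stromelysin 2) are close relatives that cut a broad range of matrix proteins. Adamts18 belongs to the secreted metalloproteases with thrombospondin repeats, Adamdec1 is a soluble, shortened relative of the ADAM proteases known from gut fibroblasts and macrophages, and Prss23 is a secreted serine protease of the trypsin type.

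Mmp3 and Mmp10 lie next to each other on chromosome 9 of GRCm38, both on the plus strand: Mmp3 at chr9:7445822-7455975 and Mmp10 at chr9:7502352-7510240, with 46376 bases and 1 pseudogene between them. Adamts18 is at chr8:113697126-113848738, Adamdec1 at chr14:68563380-68582095 and Prss23 at chr7:89507783-89527187, all on the minus strand. The Mmp3 and Mmp10 transcripts were 76.8% identical over 1710 aligned bases. They shared 202 runs of 31 bases, none of which fell in the last 500 bases of either transcript, the part nearest to the end that the 3′ chemistry of these libraries reads.

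Because this neighbouring pair gave different cell patterns, the 250 bases before their RefSeq start sites (GRCm38.p6, plus strand, 5′ to 3′) are shown, Mmp3 at chr9:7445572-7445821 and Mmp10 at chr9:7502092-7502341. Capitals mark TGANTCA, the letters of an AP-1 element, and TATAAA, those of a TATA box, each searched on both strands.
Mmp3: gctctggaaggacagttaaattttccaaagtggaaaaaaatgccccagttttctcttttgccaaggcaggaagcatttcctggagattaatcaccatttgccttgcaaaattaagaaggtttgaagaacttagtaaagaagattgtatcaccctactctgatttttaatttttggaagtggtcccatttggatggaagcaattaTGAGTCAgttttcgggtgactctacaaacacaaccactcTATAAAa
Mmp10: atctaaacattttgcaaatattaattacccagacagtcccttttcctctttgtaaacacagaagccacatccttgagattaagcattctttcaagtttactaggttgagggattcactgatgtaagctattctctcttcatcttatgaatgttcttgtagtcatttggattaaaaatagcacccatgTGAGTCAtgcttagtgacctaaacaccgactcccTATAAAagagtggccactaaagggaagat
In Mmp3 the first motif lay 46 to 40 bases before the start and the second 7 to 2 bases before it, and in Mmp10 they lay 63 to 57 and 29 to 24 bases before the start. Both windows therefore held both motifs, against 1.21% of the 32851 RefSeq windows of this length. TGANTCA alone was found in 6.75% of the windows and TATAAA in 12.4%. The pair of windows was 67.6% identical over 222 aligned bases. For Adamts18, the single window held neither motif, and of the 7 Prss23 windows 2 that overlap held TGANTCA and none held TATAAA. A RefSeq window was matched for 4 of the 5 genes. These matches describe the letters only.

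Levels below are means over the cells of a group, in UMIs per 10,000 UMIs of a cell. Differences were tested with limma on natural log values averaged over the cells of a group in each library, in which 1 UMI in a deep cell weighs less than the same UMI in a shallow one, and p-values were adjusted over the 1931 genes tested. Steps between neighbouring groups are read against the share of all tested genes that passed: 45.6% between Wif1- subepithelial and villus cells, 60.4% between mesothelial-like and Fibin-type cells, 60.7% between crypt and Fibin-type cells and 13.3% between mesothelial-like and crypt cells. All 5 genes passed the filter, a UMI in at least 5% of the cells of some group. Adamts18 passed it only through the Wif1- subepithelial cells and Mmp10 only through these and the villus cells, so that a difference for those groups was partly set by the filter.

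**Figure D1:**
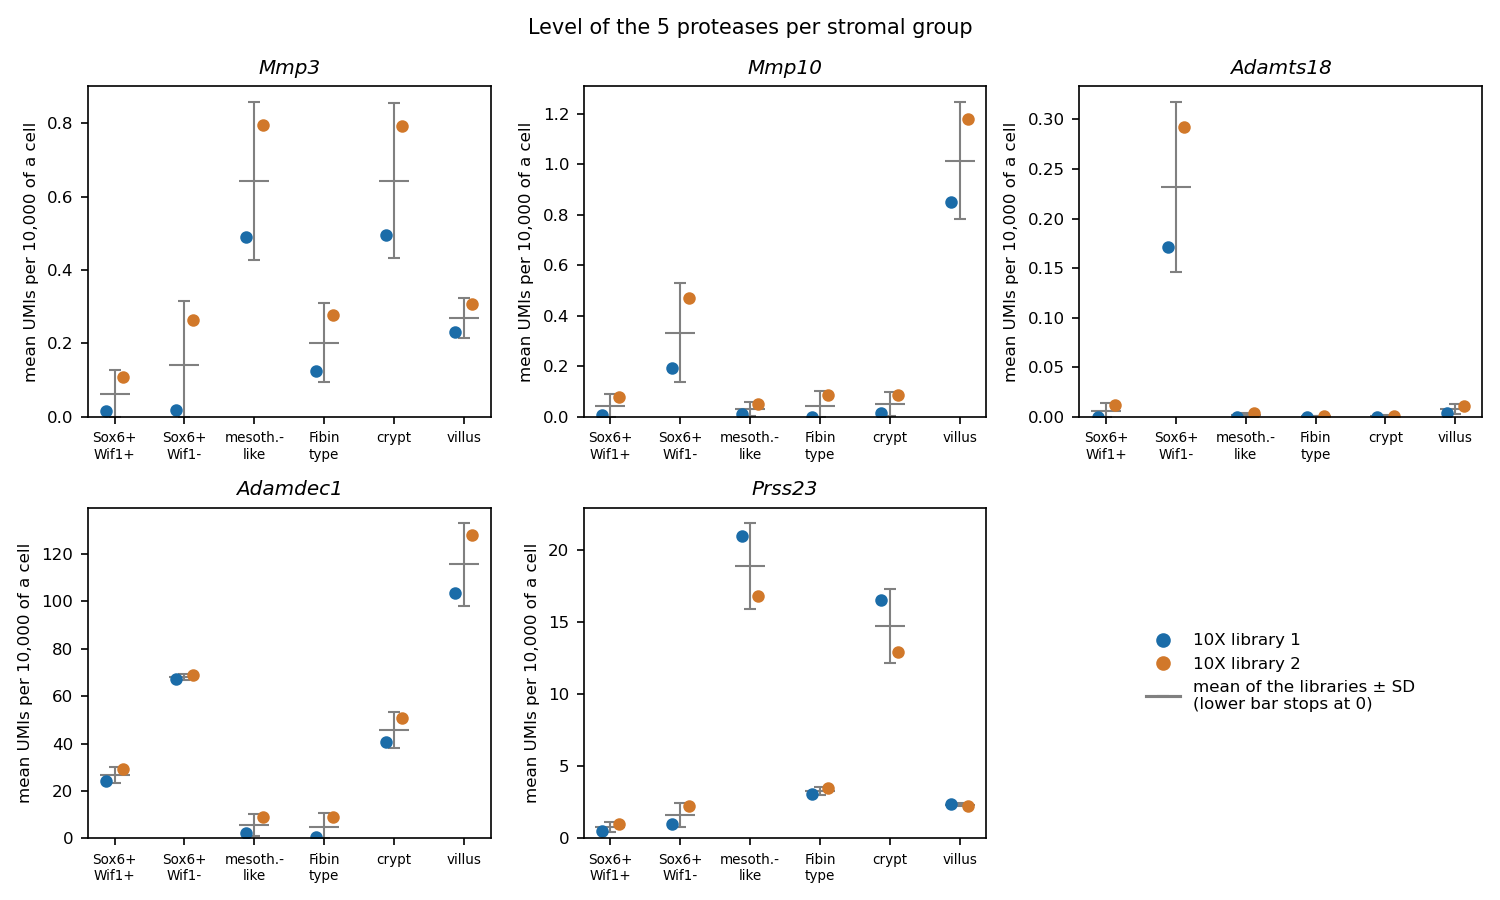
Mean level of each protease (y axis, UMIs per 10,000 UMIs of a cell) in the 6 stromal groups (x axis), 1 panel per gene with its own scale. Points are the 2 libraries and grey bars the mean ± SD. Mmp3 and Prss23 are highest in mesothelial-like and crypt cells, Mmp10 and Adamdec1 in villus cells, and Adamts18 stands alone in Wif1- subepithelial cells.

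Mmp3 was highest in crypt and mesothelial-like cells. Its level was 0.495 and 0.792 UMIs per 10,000 in the crypt cells of libraries 1 and 2, from 433 and 2723 UMIs, and 0.491 and 0.795 in mesothelial-like cells. Villus cells held 0.230 and 0.307, and Fibin-type cells 0.126 and 0.279. The villus value of library 1 came from 136 UMIs, 71 of them in 1 cell. The Wif1+ subepithelial cells were lowest, at 0.0159 and 0.109. In Wif1- subepithelial cells the libraries disagreed most: 3 UMIs in 1 cell gave a level of 0.0179 in library 1, whereas 402 UMIs, 116 of them in 1 cell, gave 0.263 in library 2.

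Both libraries of crypt and mesothelial-like cells stood above the Fibin-type, villus and subepithelial cells of the same library. For mesothelial-like cells this depended on the gate, when groups were drawn after each cell had been thinned to 2000 UMIs. They then held 0.0610 Mmp3 UMIs per 10,000 in library 1, below Fibin-type (0.25) and villus cells (0.0891). In library 2 they held 0.357, above Fibin-type (0.184) and villus cells (0.330). The library 1 values rest on only 82 mesothelial-like and 80 Fibin-type cells. Going down the order of mean log values (crypt, mesothelial-like, Fibin type, villus, Wif1-, Wif1+), only the step from mesothelial-like to Fibin-type cells passed the test (limma, adjusted p = 0.00240), and no other pair of neighbours passed it. Between crypt and villus cells the log value of Mmp3 was higher by 0.10 ± 0.024 (SD, n = 2; adjusted p = 0.00214), which on the scale of levels was 2.15-fold in library 1 and 2.58-fold in library 2. It was lower in subepithelial cells than in the rest by 0.089 ± 0.0066 (adjusted p = 2.37e-05).

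Few cells carried this transcript. At least 1 Mmp3 UMI was found in 8.42% (exact 95% interval 6.79 to 10.3) and 12.1% (11.2 to 13.0) of crypt cells, against 3.93% and 5.24% of villus cells. These intervals cover counting error only. After each cell had been thinned to 2000 UMIs, to remove the difference in depth, the shares were 4.85% and 7.03% in crypt cells and 1.85% and 2.52% in villus cells. Over all cells, the 10% of Mmp3-positive cells with the most UMIs held 51.0% and 49.9% of its UMIs, with up to 71 and 161 UMIs in a single cell. Of 104 ungrouped cells of library 2 that carried markers of immune, glial or epithelial cells, 1 had Mmp3, and its 12 UMIs gave these cells a mean level of 0.194.

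Mmp10 had another distribution from that of its neighbour. Villus cells held 0.850 and 1.18 UMIs per 10,000, from 445 and 2474 UMIs, followed by the Wif1- subepithelial cells with 0.195 and 0.471, from 34 and 716 UMIs. The other groups were far lower: crypt cells held 0.0159 and 0.0854, mesothelial-like cells 0.0119 and 0.0501, and Wif1+ subepithelial cells 0.00795 and 0.0768. Fibin-type cells held 0.0851 in library 2 and none in the 100 cells of library 1, which allows up to 3% of cells with a UMI.

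Villus cells were thus above every other group in both libraries, by 53.3-fold and 13.8-fold over crypt cells and by 4.35-fold and 2.50-fold over Wif1- subepithelial cells. The first 2 steps of the order passed the test, from villus to Wif1- subepithelial cells (adjusted p = 0.000193) and from these to Wif1+ cells (adjusted p = 0.000524). The last 4 groups could not be told apart, with adjusted p of 0.935 to 0.992 between neighbours. The log value in crypt cells was lower than in villus cells by 0.20 ± 0.013 (adjusted p = 4.33e-05). Between the pooled subepithelial groups and the rest it differed by 0.0020 ± 0.014, with opposite signs in the libraries (adjusted p = 0.809).

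Mmp10 was found in 11.6% and 10.7% of villus cells and in 8.77% and 10.8% of Wif1- subepithelial cells. Thinned to 2000 UMIs per cell, these shares were 8.39% and 6.92% in villus cells and 2.96% and 5.01% in Wif1- subepithelial cells, so the groups lay further apart at equal depth than in the raw shares. None of the 104 ungrouped cells of other lineages had a UMI of it, which allows up to 2.88%.

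Within the villus cells Mmp10 was uneven. In a split chosen after values were seen, villus cells with a UMI of the chemokine gene Cxcl13 held 1.97 and 1.89 Mmp10 UMIs per 10,000, and those without held 0.588 and 1.02. Mmp10 was found in 25% and 19.4% of the former and 8.48% and 8.78% of the latter. Their median depths also differed, at 9301.5 and 6690 against 7510 and 5802 UMIs, and the part of depth in this contrast was not tested.

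**Figure D2:**
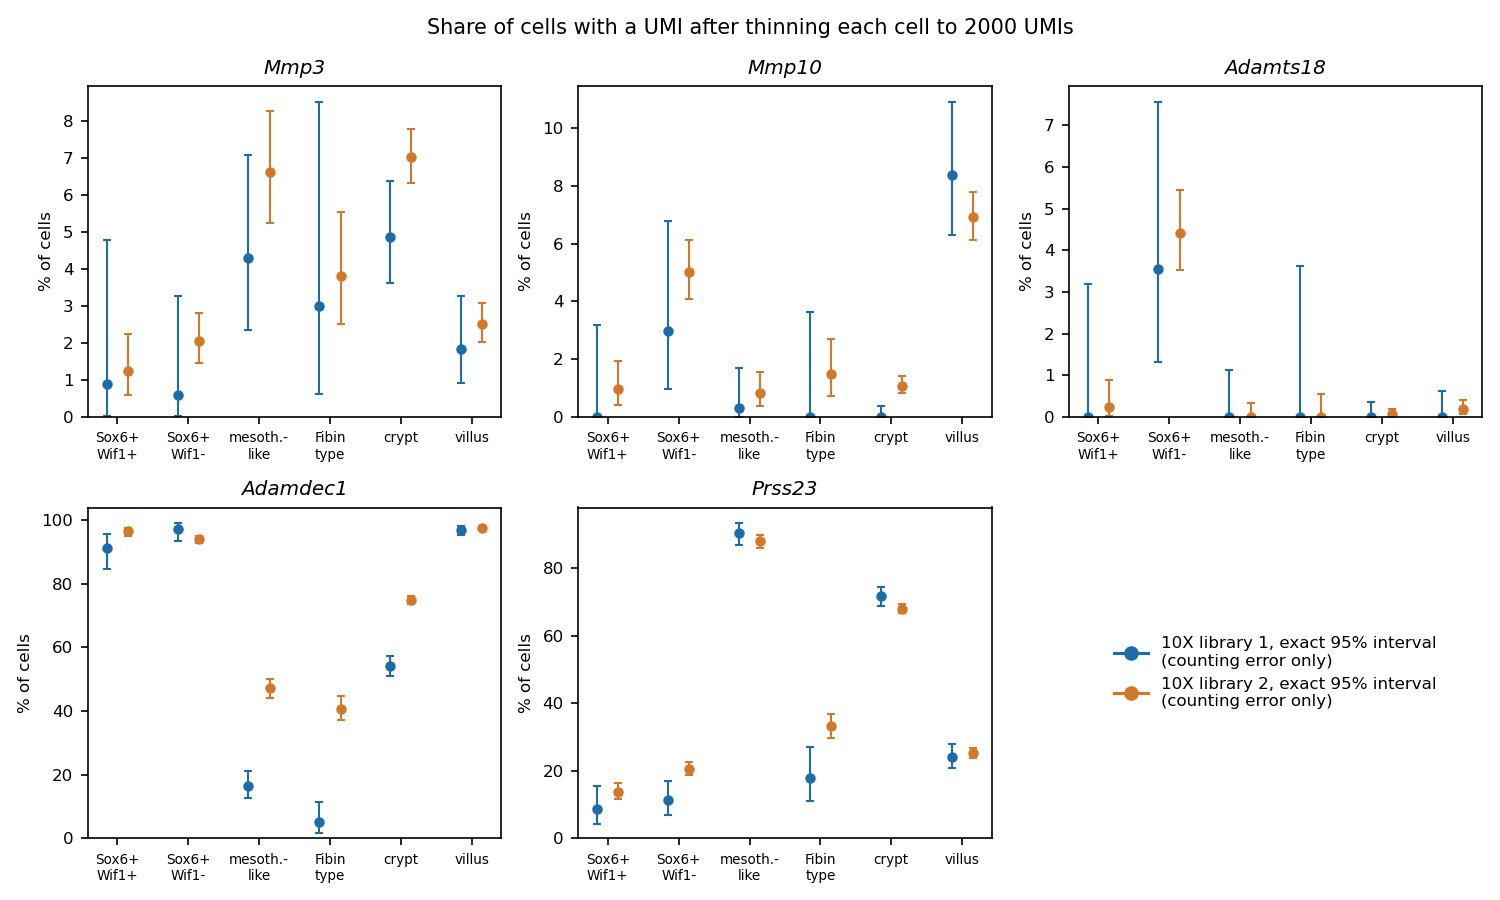
Share of cells with at least 1 UMI (y axis, % of cells) in each stromal group (x axis) after every cell was thinned to 2000 UMIs. Points are the 2 libraries and bars the exact 95% intervals, which cover counting error only. Mmp3, Mmp10 and Adamts18 stay under 10% of cells in every group, whereas Adamdec1 is found in over 90% of subepithelial and villus cells.

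With groups drawn on all UMIs, Adamts18 was nearly limited to the Wif1- subepithelial cells, the group in which Foxl1 and Lama5 were also highest. Their level was 0.172 UMIs per 10,000 in library 1 and 0.293 in library 2, from 32 and 440 UMIs. Wif1+ subepithelial cells held none in the 114 cells of library 1, which allows up to 2.63% of cells with a UMI and sets no limit on cells that express the gene, and 0.0118 (11 UMIs) in library 2. Villus cells held 0.00394 and 0.0111, from 3 and 28 UMIs. The other 3 groups had no UMI in library 1 and 1 to 5 UMIs each in library 2.

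The Wif1- cells made up 6.71% and 13.1% of the cells of the libraries and held 68.1% and 88.7% of the Adamts18 UMIs. In library 2 their level was 24.8 times that of Wif1+ cells and 26.4 times that of villus cells. The fold over villus cells depended on the gate. With groups drawn after thinning, Wif1- cells held 0.185 and 0.281 in the 2 libraries. Villus cells then held 0 and 0.0518, and Wif1+ cells held 0 in both. On the log scale the Wif1- cells were higher than the Wif1+ cells by 0.10 ± 0.012 (adjusted p = 1.44e-05) and higher than villus cells by 0.10 ± 0.014 (adjusted p = 4.44e-06). No further step of the order passed the test (adjusted p of 0.842 to 0.997). Adamts18 passed the filter through the Wif1- cells alone, so these calls were partly set by it, and the order came from the same means. The difference to Wif1+ cells was also called with no filter on low values.

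Within the group that held it, Adamts18 was found in 10.5% (6.36 to 16.1) and 9.27% (7.99 to 10.7) of cells, and in 3.55% and 4.42% after thinning. No cell of the group had more than 4 UMIs in library 1 or 11 in library 2. In the 18 and 174 Adamts18-positive cells, Adamdec1 stood at 91.6 and 102 UMIs per 10,000, against 64.2 and 65.5 in the other Wif1- cells. Mmp10 stood at 0.546 and 0.621 against 0.154 and 0.456. Prss23 went the other way, at 0.114 and 0.978 against 1.11 and 2.35. In library 1 only 2 of the positive cells had a Mmp10 UMI and 1 had a Prss23 UMI. The positive cells were deeper (median 11565.5 and 8590.5 UMIs against 10178 and 7636.5), and levels per 10,000 are scaled for that.

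Adamdec1 was found in nearly all villus cells, where its level was 103 and 128 UMIs per 10,000. Wif1- subepithelial cells held 67.1 and 69.0, crypt cells 40.5 and 51.0, and Wif1+ subepithelial cells 24.4 and 29.2. Mesothelial-like cells held 2.44 and 8.88 and Fibin-type cells 0.761 and 9.01. Each group kept its place in both libraries, except that the last 2 changed places.

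The villus level was 2.55 and 2.51 times that of crypt cells, and the Wif1- level 2.75 and 2.37 times that of Wif1+ cells. The log value was lower in crypt than in villus cells by 1.92 ± 0.30 (adjusted p = 0.00106), a call that was lost on the scale of the natural log of the mean level plus 0.1 (-0.93, adjusted p = 0.223). By the mean of the log values Wif1+ subepithelial cells stood above crypt cells, opposite to the order of mean levels, and crypt cells were a mixture of cells with much and with little. Of the 5 steps between neighbours only that from crypt to mesothelial-like cells passed the test (adjusted p = 0.00309). The steps villus to Wif1-, Wif1- to Wif1+ and Wif1+ to crypt had adjusted p of 0.0658, 0.0752 and 0.104.

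A UMI of Adamdec1 was found in 97.2% and 98.8% of villus cells, but also in 36.9% and 83.9% of mesothelial-like cells and in 18.0% and 73.5% of Fibin-type cells. Of the 104 ungrouped cells of other lineages in library 2, 55.8% had a UMI at a median depth of 4065 UMIs, and their level was 9.13. In 5 cells with epithelial markers the level was 1.09, in 46 with glial markers 6.55, and in 53 cells with immune markers, 1 of which held 158 of their 354 UMIs, it was 12.1. The levels in mesothelial-like and Fibin-type cells of library 2, whose median depths were 8067 and 7272, lay between the last 2. At 2000 UMIs per cell Adamdec1 was found in 47.2% (44.2 to 50.2) and 40.8% (37.0 to 44.6) of them, against 34.2% of the cells of other lineages (interval 23.9 to 45.7). How much of the signal in these groups was background was not tested. In library 1 only 6 such cells were found, too few for the same comparison.

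Crypt cells divided sharply for Adamdec1. Those with Cd81, a membrane protein of the tetraspanin family (482 and 2453 cells), held 2.13 and 14 UMIs per 10,000, and those without (539 and 2384 cells) held 74.8 and 89.1. Crypt cells with the chemokine receptor gene Ackr4 held 12.8 and 17.4 against 77.1 and 87.8 without it. Of the crypt cells 47.8% and 55.1% also carried Lpl, the gene of the villus gate. Those that did held 66.9 and 76.0 Adamdec1 UMIs per 10,000, against 16.3 and 20.3 in those that did not. These splits were chosen after values were seen and are given without a test.

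Prss23 was the mirror image within the same cells. Crypt cells with Cd81 held 28.0 and 20.6 UMIs per 10,000 and those without held 6.28 and 5. By Ackr4 the levels were 23.9 and 19.3 with and 6.84 and 5.96 without, and by Lpl they were 9.24 and 8.41 with and 23.2 and 18.5 without. In the same splits Mmp3 differed less, at 0.566 and 0.960 in crypt cells with Ackr4 and 0.400 and 0.609 without.

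**Figure D3:**
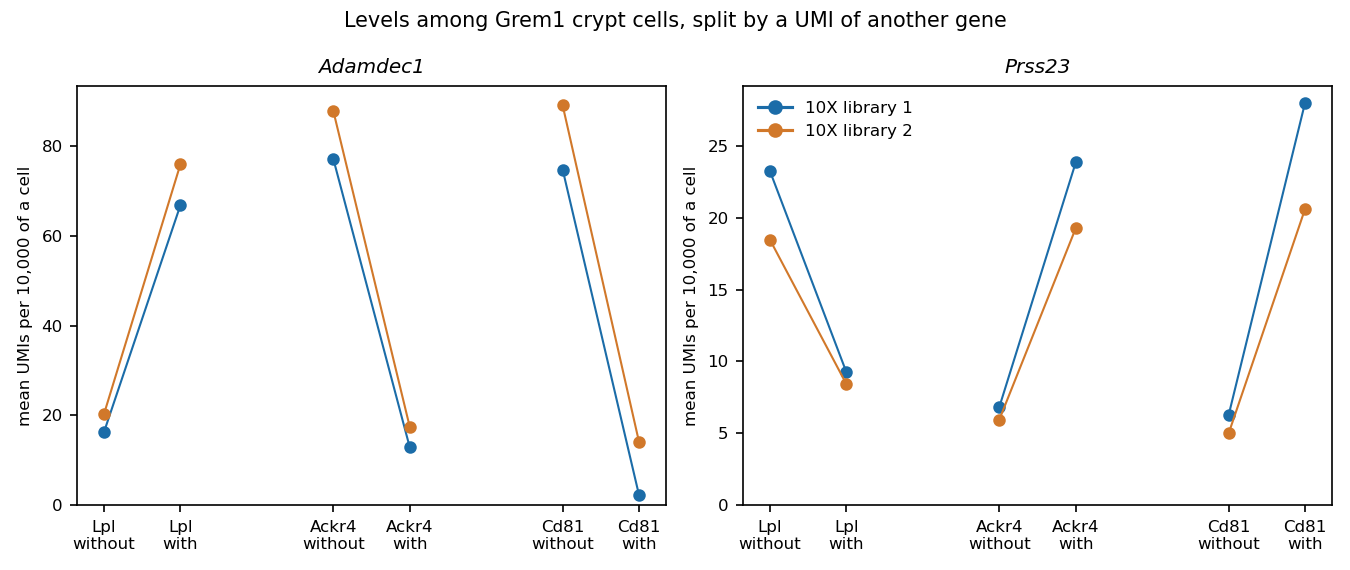
Mean level of Adamdec1 (left) and Prss23 (right) among Grem1 crypt cells, in UMIs per 10,000 UMIs of a cell (y axis), for cells without and with a UMI of Lpl, Ackr4 or Cd81 (x axis). Points are the 2 libraries and lines join the same library. Cells with Ackr4 or Cd81 are lower in Adamdec1 and higher in Prss23, and cells with Lpl the reverse, in each library.

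Across the groups, Prss23 was highest in mesothelial-like cells, at 21 and 16.8 UMIs per 10,000, and next in crypt cells, at 16.5 and 12.9. Fibin-type cells held 3.09 and 3.48, villus cells 2.39 and 2.25, Wif1- subepithelial cells 1.00 and 2.23, and Wif1+ subepithelial cells 0.516 and 1.02. Mesothelial-like and crypt cells stood above all other groups in each library. Both upper steps passed the test: mesothelial-like over crypt cells (adjusted p = 0.0229) and crypt over Fibin-type cells (adjusted p = 2.89e-05). The first of them depended on the gate: with groups drawn after thinning, mesothelial-like cells held 15.1 and 15.5 and crypt cells 19.96 and 15.3. None of the lower steps passed the test (adjusted p of 0.256 to 0.840).

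The log value of Prss23 was higher in crypt than in villus cells by 1.44 ± 0.13 (adjusted p = 0.000351) and lower in subepithelial cells than in the rest by 1.16 ± 0.14 (adjusted p = 1.85e-06). A UMI was found in 97.6% and 97.7% of mesothelial-like cells and 87.1% and 83.7% of crypt cells. In villus cells the shares were 48.3% and 47.6%. The 104 ungrouped cells of other lineages in library 2 had it in 35.6% of cells at a level of 1.98 (2.49 in glial-marker and 1.44 in immune-marker cells), beside 1.02 to 2.25 in the subepithelial and villus cells of that library. How much of these low levels was background was not tested.

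Prss23 was also uneven inside other groups. Of the mesothelial-like cells 72.5% and 60.8% also carried Grem1, the gene of the crypt gate. Those that did held 25.3 and 19.7 and those that did not held 9.54 and 12.2, below the crypt cells of the same library. Among Wif1- subepithelial cells of library 2, the 365 with Grem1 held 7.20 and the remaining 1513 held 1.03, and in library 1 the 12 with Grem1 held 5.34 and the other 159 held 0.676. Among Fibin-type cells, those with all 4 genes of the gate held 0.915 and 2.28, and those with 3 held 10.4 and 7.21. In each of these contrasts, chosen after values were seen, the cells with Grem1 or with fewer genes of their gate held more Prss23 in both libraries.

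Genes of the stress response, which dissociation of tissue is known to raise, also differed between the groups. The summed level of 14 such genes, among them Fos and Egr1, was 224 and 217 UMIs per 10,000 in mesothelial-like cells, 192 and 196 in crypt cells and 112 and 135 in villus cells, against 47.6 to 90.6 in the subepithelial and Fibin-type cells. Within the crypt cells, those above the median of this sum held 0.432 and 0.791 Mmp3 UMIs per 10,000, and those below it 0.557 and 0.794. The share of crypt cells with Mmp3 went the other way, at 9.41% and 12.5% above and 7.44% and 11.6% below the median. In villus cells Mmp3 was 0.403 and 0.299 above and 0.0575 and 0.315 below it. The library 1 values came from 124 and 12 UMIs, and 1 cell above the median held 71. After thinning, 1.71% and 2.30% of villus cells above the median had Mmp3, against 1.98% and 2.75% below. In crypt cells Prss23 was higher above the median, at 21.3 and 16.4 against 11.9 and 9.49, and Adamdec1 lower, at 18.4 and 28.8 against 62.5 and 73.2. In villus cells Mmp10 was 0.505 and 0.538 above and 1.19 and 1.82 below the median. In Wif1- subepithelial cells Adamts18 was 0.119 and 0.175 above and 0.223 and 0.410 below. The part of the stress response in the group differences was not tested.

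Each gene was then read in the 5 planned comparisons side by side, where 19 of the 25 differences were called. Between subepithelial cells and the rest 4 of 5 were called, against 77.3% of all genes tested, and between Wif1- and Wif1+ cells 2 of 5, Mmp10 and Adamts18, against 17.0%. Nothing is read from the latter count, since both genes entered the test through groups in which they were high. Between crypt and villus cells 4 of 5 were called, Adamts18 being the exception, against 22.3%, but Mmp10 had passed the filter through villus cells and the Adamdec1 call depended on the scale, so that Mmp3 and Prss23 remain. For mesothelial-like cells against the rest all 5 were called (64.9% of all genes) and for Fibin-type cells 4 of 5 (67.9%), with Mmp3 the exception. For Adamts18 and Mmp10, the calls for mesothelial-like and Fibin-type cells against the rest restate the levels of the few groups that held them. In the comparisons where most genes were called, a call for a protease is no mark of it. These comparisons share groups, so their values are not independent.

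In mesothelial-like cells Mmp3 was higher than in the rest by 0.084 ± 0.023 (adjusted p = 0.000248) and Prss23 by 1.84 ± 0.22 (adjusted p = 1.62e-06). Adamdec1 was lower there by 1.97 ± 0.39 (adjusted p = 2.83e-05) and Mmp10 by 0.062 ± 0.0073 (adjusted p = 0.000392). The Mmp3 result was lost when cells were thinned before the groups were drawn: only 82 and 336 cells then met the gate, and the difference was -0.0049 (adjusted p = 0.823).

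Fibin-type cells held less of 4 of these enzymes than the rest, against 41.1% of all genes tested that were lower there. Adamdec1 was lower by 2.24 ± 0.47 (adjusted p = 1.02e-05), Prss23 by 0.54 ± 0.28 (adjusted p = 0.00176), Mmp10 by 0.060 ± 0.0074 (adjusted p = 0.000409) and Adamts18 by 0.023 ± 0.0043 (adjusted p = 0.00364). The Prss23 call was lost on the scale of the natural log of the mean level plus 0.1 (-0.14, adjusted p = 0.515), and its level in Fibin-type cells was above that of villus and subepithelial cells in each library. For Adamts18, Fibin-type cells did not pass the test against any single group but the Wif1- cells (adjusted p of 0.683 to 0.997 for the others). Mmp3 differed by -0.0050 ± 0.019, with opposite signs in the libraries (adjusted p = 0.733). In subepithelial cells the log value of Adamdec1 was higher than in the rest by 1.27 ± 0.45 (adjusted p = 6.02e-05). Between Wif1- and Wif1+ cells Mmp10 was higher by 0.099 ± 0.017 (adjusted p = 0.000524), Adamdec1 by 0.76 ± 0.21 without passing the test (adjusted p = 0.0752), and Mmp3 (adjusted p = 0.810) and Prss23 (adjusted p = 0.525) did not pass it.

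**Figure D4:**
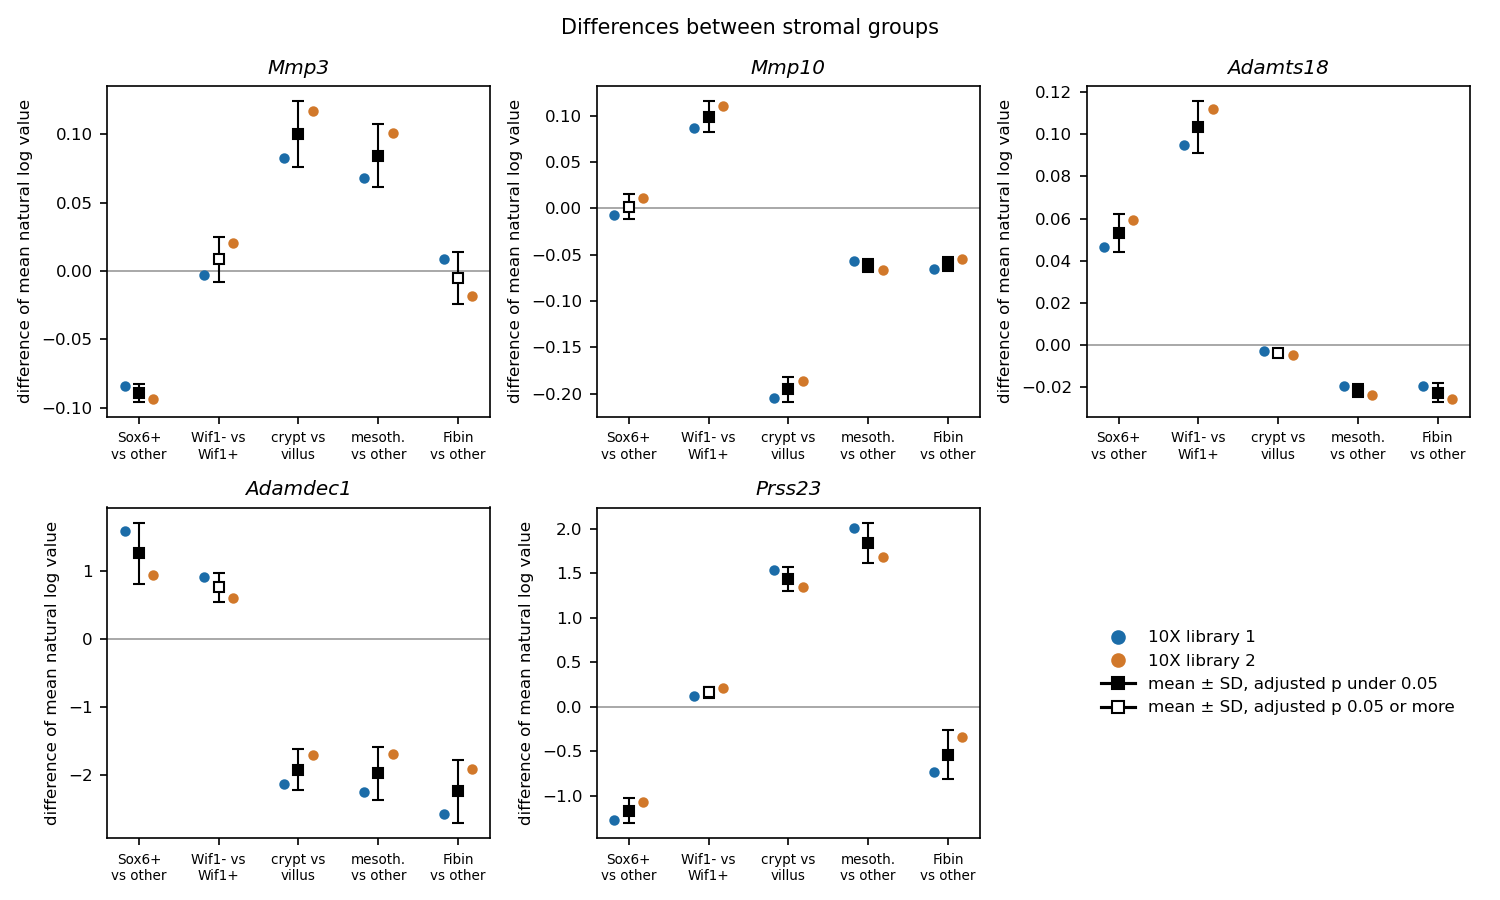
Difference of the mean natural log value (y axis) of each protease in the 5 comparisons (x axis). Coloured points are the 2 libraries, squares the mean of both ± SD, filled where the adjusted p (limma) was under 0.05. The libraries fall on opposite sides of 0 only for Mmp10 in subepithelial cells against the rest, and for Mmp3 between Wif1- and Wif1+ cells and in Fibin-type cells.

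Co-detection in single cells was compared with the number expected if the genes were spread independently over the cells of the 6 groups. Over all groups, which differ in both genes, 43 cells of library 2 had Mmp3 and Mmp10, against 64.1 expected (odds ratio 0.637). In library 1 there were 6 against 6.11. After thinning, 9 cells were found against 18.9 in library 2, and 1 against 1.91 in library 1, where the counts are too small to read. Within villus cells the libraries went different ways, with 5 cells against 2.79 and 13 against 20.8. Within the other groups of library 2 the pair was close to or above expectation, with 12 cells against 8.17 in Wif1- subepithelial, 13 against 13.4 in crypt, 3 against 2.97 in mesothelial-like and 2 against 1.58 in Fibin-type cells, or below it with 0 against 0.887 in Wif1+ cells.

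Mmp10 and Adamts18 met more often, in 3 and 48 cells against 0.826 and 12.3 expected. Within Wif1- subepithelial cells of library 2 there were 41 against 18.7 (odds ratio 2.95), and in library 1 there were 2 against 1.58. Thinned to 2000 UMIs, all groups of library 2 gave 9 cells against 3.08. All 20 and 205 Adamts18-positive cells also had Adamdec1, as did 96 of 97 and 763 of 783 Mmp10-positive cells. Since most cells of library 2 had an Adamdec1 UMI, with 55.8% even among those of other lineages, these shares carry little by themselves.

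Over all groups, which differ in each of these genes, Prss23 divided the others. The part of the groups in these ratios was not tested. Prss23 met Mmp3 more often than expected (odds ratios 2.47 and 2.69, and 2.60 and 2.98 after thinning) and Mmp10 less often (0.102 and 0.327, and 0.0858 and 0.252 after thinning). Within crypt cells the libraries went different ways for Mmp3, at 0.492 and 0.858 with Prss23 and 0.516 and 0.456 without. Villus cells with Prss23 held more Mmp3 in each library. Adamts18 and Prss23 were found together in 1 cell against 13.9 in library 1 and in 65 against 132 in library 2. For Adamdec1 and Prss23 the odds ratios were 0.204 and 0.302, and 0.0864 and 0.155 after thinning. Within crypt cells alone, Adamdec1 stood at 30.6 and 38.1 UMIs per 10,000 in cells with Prss23 and at 107 and 117 in cells without. Villus and Wif1- subepithelial cells went the same way. Fibin-type cells went the other way, at 1.90 and 10.1 with and 0.203 and 7.68 without, and in Wif1+ cells the libraries disagreed. Cells of 1 library are not replicates, so these ratios are given per library and without a test.

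**Figure D5:**
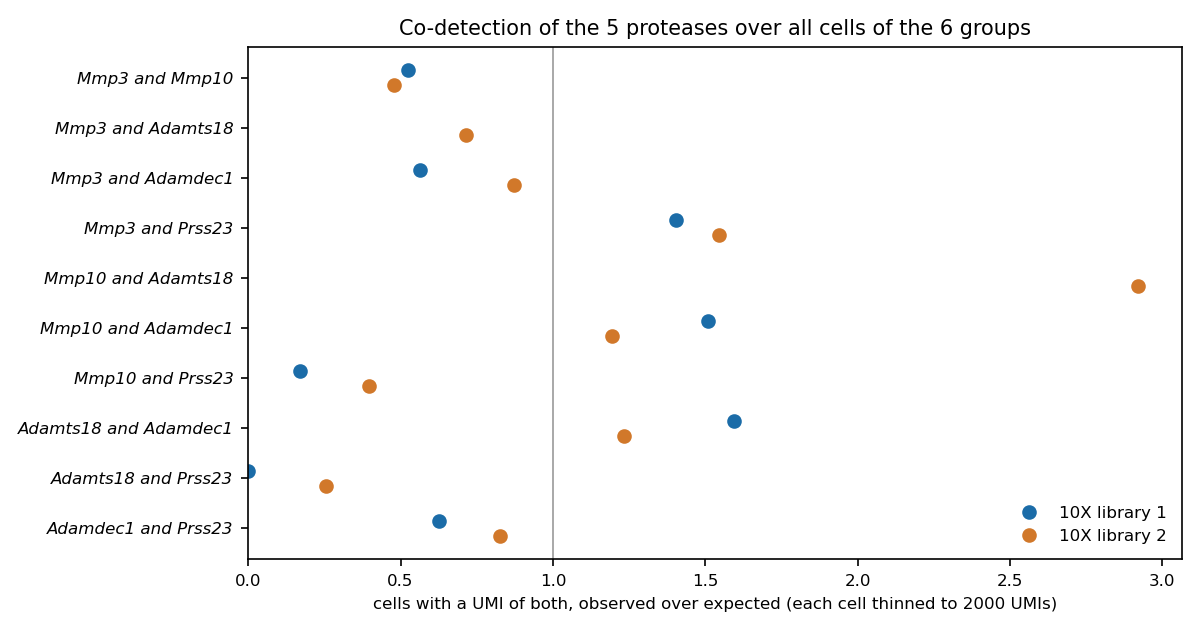
Cells with a UMI of both genes of a pair, observed over expected (x axis, a ratio in which 1 is independence), for the 10 pairs (y axis) over all cells of the 6 groups thinned to 2000 UMIs. Points are the 2 libraries, and 2 points of library 1 with under 1 expected cell, Mmp10 with Adamts18 and Mmp3 with Adamts18, are left out. Pairs with Prss23 lie below 1 except the pair with Mmp3.

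Other proteases, their inhibitors and their matrix substrates were read from lists. The table held 22 of 54 other metalloproteases, 15 of 33 serine and cysteine proteases, 26 of 36 inhibitors and non-catalytic relatives and 15 of 24 matrix substrates, of which 14, 8, 22 and 15 could be tested. In subepithelial cells against the rest, 8 metalloproteases were higher and 3 lower, with a median log difference of 0.022, while 6 inhibitors were higher and 15 lower, with a median of -0.12. Over all genes 822 were higher and 670 lower, with a median of 0.011. Serine and cysteine proteases were 4 higher and 4 lower, and substrates 8 higher and 4 lower. The proprotein convertase Pcsk6 was higher by 1.30 ± 0.20 (adjusted p = 5.69e-08), Adam19, a membrane metalloprotease, by 1.22 ± 0.15 (adjusted p = 3.05e-08) and the endothelin-converting enzyme Ece1 by 1.04 ± 0.0024 (adjusted p = 2.22e-08). The serpin Serpinf1 fell by 0.65 ± 0.057, the convertase Pcsk5 by 0.58 ± 0.11 and Adamts1 by 0.53 ± 0.075 on the natural log scale (adjusted p of 1.14e-07 to 2.83e-06).

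Within the subepithelial cells fewer list members changed. Between Wif1- and Wif1+ cells 1 metalloprotease was higher and 4 were lower, 2 inhibitors were higher and 2 lower, and 2 substrates were higher and 4 lower, against 126 and 202 of all genes. Pappa, a metalloprotease that cuts IGF binding proteins, was higher in Wif1- cells by 0.32 ± 0.12 (adjusted p = 0.0297), the cathepsin Ctsc by 0.19 ± 0.051 (adjusted p = 0.00440) and Cpxm2, a relative of the carboxypeptidases, by 0.18 ± 0.026 (adjusted p = 0.000520). Adam19 was lower by 0.38 ± 0.063, Serpinb9 by 0.35 ± 0.086 and the cystatin Cst3 by 0.34 ± 0.048 (adjusted p of 0.00368 to 0.0381). Serine and cysteine proteases were 1 higher and 1 lower.

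Between crypt and villus cells, 2 metalloproteases and 2 serine or cysteine proteases were higher in crypt cells and none lower, against 269 higher and 162 lower of all genes. Of the inhibitors 7 were higher and 3 lower, and of the substrates 1 was higher and 5 lower. Serpina3n, a secreted serpin, was higher in crypt cells by 0.40 ± 0.023 (adjusted p = 0.00373), the metalloprotease Adamts1 by 0.38 ± 0.034 (adjusted p = 0.00259) and the cathepsin Ctsh by 0.37 ± 0.072 (adjusted p = 0.00210). Timp3, an inhibitor bound to matrix, was higher in villus cells, with a crypt minus villus difference of -0.27 ± 0.010 (adjusted p = 0.0362). Timp3 stood at 4.78 and 4.83 UMIs per 10,000 in villus cells and 2.88 and 3.31 in crypt cells. The differences of Cpxm2 and of Adamtsl2, a matrix protein related to the ADAMTS family but without protease activity, were -0.11 ± 0.0036 and -0.11 ± 0.042 (adjusted p of 0.00577 and 0.0327). Of the 14 stress genes, 13 were higher in crypt cells.

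In mesothelial-like cells against the rest, 6 metalloproteases were higher and 5 lower, 5 serine or cysteine proteases higher and 1 lower, 10 inhibitors higher and 5 lower, and 6 substrates higher and 8 lower, against 528 and 725 of all genes. Serpinf1 was higher by 0.84 ± 0.019, Adamts1 by 0.82 ± 0.077 and Ctsh by 0.73 ± 0.14 (adjusted p of 4.59e-07 to 2.02e-06), and all 14 stress genes were higher. The differences of Adam19, Pappa and Ece1 were -0.53 ± 0.057, -0.45 ± 0.16 and -0.35 ± 0.085 (adjusted p of 3.45e-05 to 0.000317). In Fibin-type cells no metalloprotease was higher and 10 were lower, with a list median of -0.24 against -0.016 over all genes. There 1 serine or cysteine protease was higher and 7 lower, 6 inhibitors higher and 12 lower, and 2 substrates higher and 12 lower, against 517 and 794 of all genes. Exceptions were Reck, a membrane inhibitor of metalloproteases (higher by 0.82 ± 0.084), Serpine2 (0.59 ± 0.19) and the plasminogen activator Plat (0.52 ± 0.11), with adjusted p of 5.30e-08 to 9.81e-06. Among those that were lower, the differences of Pcsk6, Pcsk5 and the procollagen protease Adamts2 were -0.89 ± 0.092, -0.74 ± 0.078 and -0.63 ± 0.082 (adjusted p of 4.16e-06 to 2.87e-05). Of the stress genes 1 was higher and 13 lower in these cells.

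The genes whose pattern over the 12 library and group means was most like that of each protease were found by Pearson's r of the mean log values, among 1926 genes and given as a description. For Mmp3 they were Hmox1, encoding heme oxygenase (r = 0.942), the heat shock gene Dnajb1 (0.939) and Ism1 (0.937). For Mmp10 they were Sertm1 (0.965), Rgs17 (0.908) and the chemokine Cxcl5 (0.900). For Adamts18 they were the collagen gene Col6a4 (0.986), Fam162b (0.977) and Slitrk6 (0.970), and Col6a4 stood at 0.656 and 0.950 UMIs per 10,000 in Wif1- subepithelial cells and at 0.148 or less elsewhere. For Adamdec1 they were Fgd6 (0.983), Scube1 (0.969) and Cd44 (0.951), and for Prss23 they included Galnt16 (0.996) and the BMP antagonist Chrdl1 (0.986). The points share libraries and depth, and the means of a group rest on the same cells.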

How the data were processed

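Per the labels and the study's methods, PDPN+ small intestinal stromal cells were captured in 2 10X libraries, and the authors counted UMIs with Cell Ranger 3.1.0 (3′ chemistry, mm10), removed poor cells and genes, and scaled each cell. The deposited values are the natural log of 1 plus UMIs per 10,000. From them whole UMIs were recovered for 100% of the values above 0 (tolerance 0.01). One gene row that ended early and 739 Smartseq2 columns were left out. Total UMIs per cell ran from 559 to 26890 in library 1 (median 8757) and from 465 to 22450 in library 2 (median 6874), of which the genes of the table carried 23.6% and 22.6%.

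Cells were grouped by their own counts and no doublet caller was run. Mean natural log values of 12 library and group means were tested with limma 3.58.1 (R 4.3.3, mean trend, library as block, 5 residual degrees of freedom, Benjamini-Hochberg adjustment, threshold 0.05). A gene needed a UMI in 5% of the cells of a group, and the 12 genes of the gates were left out. In simulated data, 97.0% to 100% of 200 changed genes were recovered at differences of 0.5 and 1. Of the calls 1.48% to 6.98% were false, the most for subepithelial cells against the rest. Recovery at smaller differences, such as those of Mmp3, Mmp10 and Adamts18, was not tested. Detection was also read after thinning to 2000 UMIs (Python 3.11.15, numpy 2.4.6, scipy 1.17.1), and transcripts were aligned with Biopython 1.88. Cells of other lineages were ungrouped cells with at least 3 immune or epithelial or 2 glial markers, a rule chosen after values were seen.

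The members and lists were chosen with earlier results of these data known. Besides the members, the text names at most 3 called genes of the protease and inhibitor lists per direction and comparison, with the same sign in both libraries, and the 3 genes most like each member, of which 1 is not reported here. The library number marks 1 capture shared by all groups, so it pairs them and stands as the block. Alternatives covered the filter, the scale, the trend, the block, the gates, depth, mixed cells, other cell types and each library left out.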

Additional observations from a re-analysis of the deposited data

Results flagged for a closer look

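Cells that met no gate, 199 in library 1 and 1305 in library 2, entered no comparison but also held transcripts of these genes. The shares below were above the 1.51% and 0.230% of cells that a count of 0 would allow, except for Adamts18 in library 1. Mmp3 was found in 2.51% and 5.13% of them, and 1 such cell of library 2 held 161 Mmp3 UMIs, the most of any cell. Mmp10 was found in 2.51% and 2.61%. Adamts18 was found in 0.536% of those of library 2, and in library 1 a single ungrouped cell (0.503%) held 12 UMIs, or 25.5% of all Adamts18 UMIs of that library. Adamdec1 was found in 89.4% and 91.1%, at levels of 68.0 and 65.4 UMIs per 10,000, close to those of Wif1- subepithelial cells. Prss23 was found in 53.3% and 52.5%, at levels of 3.60 and 4.24.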

How the results depend on the processing

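Of 225 values of the 5 genes under other settings, 220 kept their side of the threshold, with no called value among them changing direction. Changes of sign between uncalled values were not counted. The exceptions were Mmp3 in mesothelial-like cells against the rest, at -0.0049 (adjusted p = 0.823, limma) when cells were thinned before grouping; Adamdec1 between crypt and villus cells, -0.93 (adjusted p = 0.223), and Prss23 in Fibin-type cells, -0.14 (adjusted p = 0.515), both with the natural log of the mean plus 0.1; Adamdec1 between Wif1- and Wif1+ cells, 0.83 (adjusted p = 0.0452), without cells carrying any of 4 markers of other cell types, an alternative added after seeing the data; and Prss23 there, 0.58 (adjusted p = 0.0322), without cells carrying these or the smooth muscle gene Myh11. The causes were not tested. That last setting left 11 and 157 Wif1+ and 33 and 430 Wif1- cells. The 20% filter left values for Adamdec1 and Prss23 only, and thinning and the setting with Myh11 left none for Adamts18.

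Genes called in the 5 comparisons, in the order used above, numbered 1492, 328, 431, 1253 and 1311. Thinning before grouping gave 921, 95, 766 and 869 in all but the crypt and villus comparison, with 1286 genes tested. The 20% filter gave 987 for subepithelial cells, and leaving out cells with the 5 markers gave 183 between crypt and villus cells and 790 for mesothelial-like cells. On the scale of the log of the mean plus 0.1, higher and lower calls went from 126 and 202 to 196 and 109 between Wif1- and Wif1+ cells, and from 269 and 162 to 208 and 219 between crypt and villus cells. Without the replicate block the counts were 1426, 258, 335, 1155 and 1240, and the pairing by library changed no call of the 5 genes. With 1 library left out no test is possible. The 19 called differences then kept their sign, and 3 that were not called took opposite signs in the libraries: Mmp10 in subepithelial cells, and Mmp3 between Wif1- and Wif1+ cells and in Fibin-type cells.

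Mean shares of cells moved with depth and with a minimum of 2 UMIs: Mmp3 in crypt cells from 10.2% to 5.94% and 5.78%, Mmp10 in villus cells from 11.2% to 7.65% and 8.08%, Adamts18 in Wif1- cells from 9.90% to 3.99% and 4.95%, and Prss23 in mesothelial-like cells from 97.6% to 89.2% and 94.9%. With 1 library each, these ranged from 8.42% to 12.1%, 10.7% to 11.6%, 9.27% to 10.5% and 97.6% to 97.7%, and Adamdec1 in villus cells from 97.2% to 98.8%. Observed over expected co-detection went from 0.826 to 0.50 after thinning for Mmp3 with Mmp10 (0.671 to 0.981 by library), from 3.77 to 1.46 and, at 2 UMIs, 8.00 for Mmp10 with Adamts18 (3.63 to 3.90; thinned library 2 alone gave 2.92, and library 1 had 0.145 expected cells), and from 0.938 to 0.727 and 0.797 for Adamdec1 with Prss23 (0.899 to 0.978).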
